A study of Mus musculus with 6 samples.

Results

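Chemokine receptors are the genes described here: Ccr1, Ccr2, Ccr4, Ccr8, Ccr9, Cxcr3, Cxcr4, Cxcr6 and Xcr1, which steer lymphocytes to lung and lymphoid tissue. They were taken by gene symbol from a table of 18543 genes, and all 9 were in it. The cells were group 2 innate lymphoid cells (ILC2s), lymphocytes that lack rearranged antigen receptors and answer IL-33 from damaged epithelium with type 2 cytokines. C57BL/6 mice of 8 weeks gave the lungs they were sorted from. Every mouse, of either genotype, had received 0.5 µg of recombinant mouse IL-33 through the nose on each of 3 days, and the cells were taken on day 4, so no library shows unstimulated cells. There were 6 libraries of RNA, 3 labelled wild type (WT 1, WT 2 and WT 3) and 3 labelled Atg5-/- (KO 1, KO 2 and KO 3). Atg5 is needed for autophagy, and the comparison asks how the ILC2 transcriptome differs without it. The labels do not say in which cells Atg5 was deleted, by what means, or whether the libraries are from separate mice, and p-values therefore measure a spread between samples that may be technical.

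Chemokine receptors span the membrane repeatedly and signal through inhibitory G proteins. A cell that carries one moves up a gradient of the matching chemokine, by way of PI3-kinase gamma and the Rac GTPases. Each receptor reads its own ligands: CCR1 reads CCL3 and CCL5, CCR2 reads CCL2, CCR4 reads CCL17 and CCL22, CCR8 reads CCL1 and CCL8, and CCR9 reads CCL25. CXCR3 reads CXCL9, CXCL10 and CXCL11, CXCR4 reads CXCL12, CXCR6 reads CXCL16, and XCR1 reads XCL1. CCR4 and CCR8 are known from type 2 helper T cells, CXCR6 from innate lymphoid progenitors and tissue-resident lymphocytes, and CCR2 from monocytes and migrating lymphocytes. XCR1 is best known from type 1 conventional dendritic cells.

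Library totals ran from 28827545 to 33662979 estimated counts. The targeted gene, Atg5, was at 66.3, 71.8 and 21.8 CPM (counts scaled to library size) in WT 1, WT 2 and the library labelled WT 3, and at 23.0, 25.6 and 52.2 CPM in KO 1, KO 2 and KO 3. The library labelled WT 3 thus went against its label, the level in KO 3 was well above those in KO 1 and KO 2, and every direction given is one between labels. The log2 difference of Atg5 was -0.67 with all 6 libraries (SE 0.50, adjusted p = 0.478 by edgeR). Results for the receptors are given with all 6 libraries and without the library labelled WT 3, which leaves 2 libraries under the wild-type label against 3. That library was left out because of its Atg5 level, so no test of Atg5 without it is given. The choice was made with earlier results of these data known. Where a gene's level in that library also lay with the knockout libraries, leaving it out narrows the wild-type spread. The p-values without it are therefore not independent of that choice. All 14 listed ILC2 markers were in the table, led by Il5, Il2ra and Id2, and summed to 17613, 18457 and 15556 CPM on the wild-type side and 11516 to 15537 CPM on the knockout side. Among them Gata3 was between 900.1 and 1559 CPM and Il1rl1, the IL-33 receptor, between 432 and 973 CPM. By edgeR 0 of the 14 passed an adjusted p of 0.05 with all 6 libraries. At an unadjusted p under 0.05 there were 7, beside 14.4% of all genes. Without the library labelled WT 3, 2 rose (beside 17.7% of all genes) and 7 fell (beside 16.1%) at that adjusted p.

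Across the 9 receptor genes, 3 patterns stood out. Ccr2 and Ccr1 were high in WT 1 and WT 2 and low in the other 4. Ccr4, Ccr8 and Cxcr4 were low in those same 2 libraries and high in the other 4. Cxcr6 and Xcr1 differed little between any libraries, while Ccr9 was low and Cxcr3 near the lower limit of measurement. The plot of levels by library shows each gene.

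**Figure D1:**
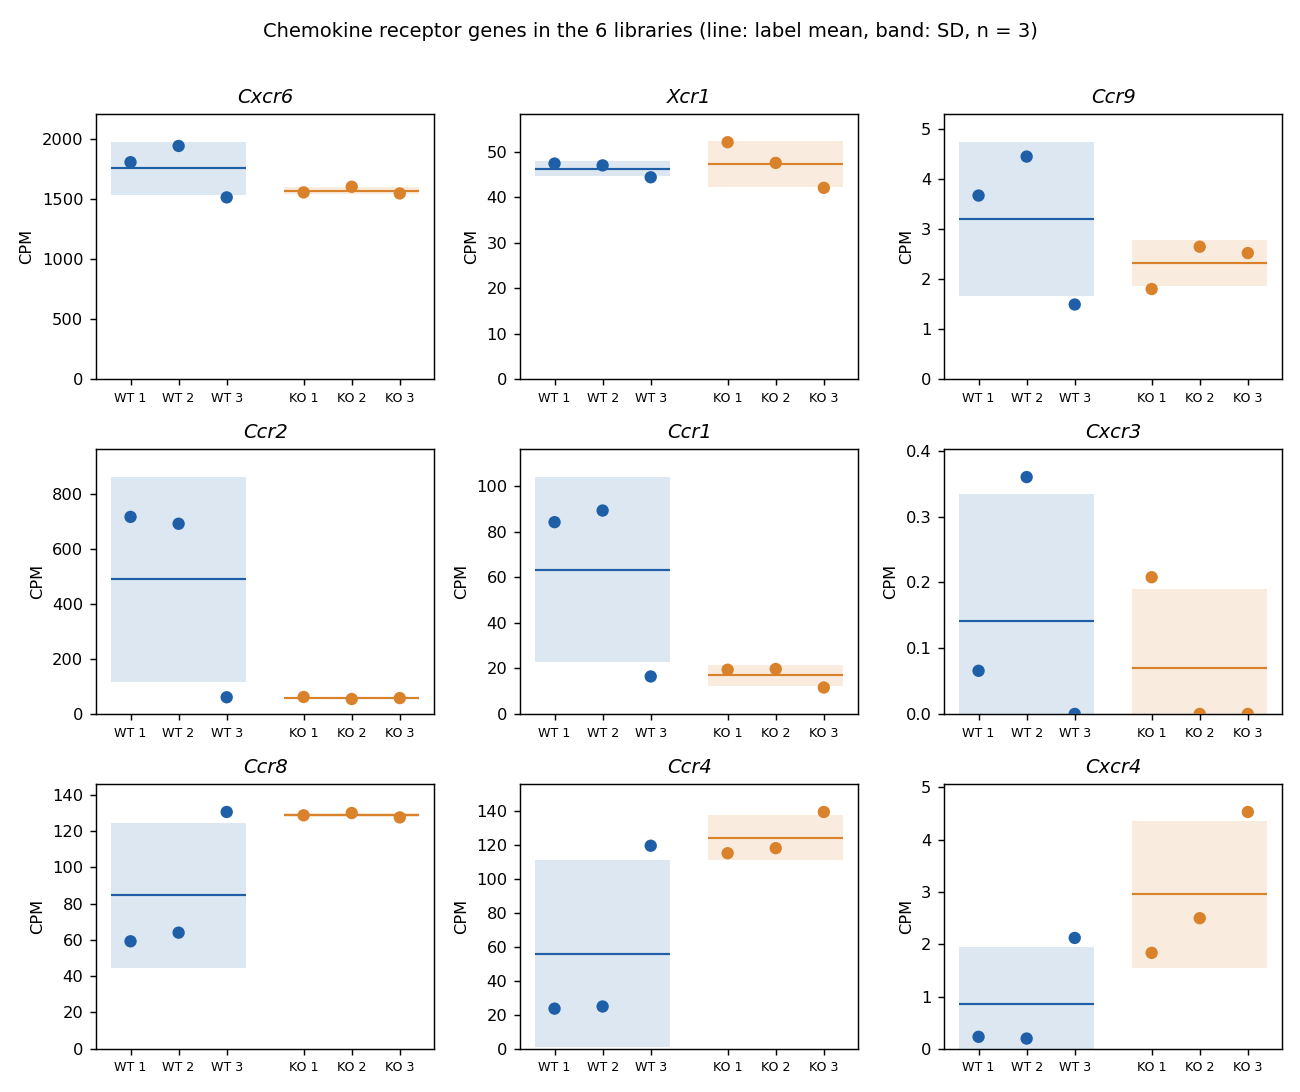
CPM (y axis, from 0) of each of the 9 receptor genes in the 6 libraries (x axis); points are libraries, lines are the mean of the 3 libraries of a label and bands are 1 SD, drawn down to 0 at most. In Ccr2, Ccr1, Ccr8, Ccr4 and Cxcr4 the library labelled WT 3 sits with those labelled knockout.

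Cxcr6 dominated the set when levels were set per kilobase of exon, which makes genes comparable. It had 938, 1008 and 785 CPM per kb in WT 1, WT 2 and the library labelled WT 3, and 807, 831 and 802 CPM per kb in KO 1, KO 2 and KO 3. That is 81.7% to 82.9% of the summed level of the 9 receptors in every library. The order of the receptors below Cxcr6 changed between libraries. In WT 1 and WT 2, Ccr2 came next at 106 and 102 CPM per kb, followed by Ccr8 at 50.4 and 54.4 CPM per kb and Ccr1 at 29.7 and 31.5 CPM per kb. In the library labelled WT 3 and in those labelled knockout, Ccr8 came next at 108 to 111 CPM per kb, followed by Ccr4 at 37.2 to 45.1 CPM per kb. With all exons of a gene merged, Ccr2 followed Xcr1 there, at 8.03 to 9.12 CPM per kb, with Xcr1 at 9.44 to 11.7 CPM per kb.

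Averaged over the wild-type label, Ccr2 (72.5 ± 55.0 CPM per kb, SD, n = 3) and Ccr8 (71.9 ± 33.9 CPM per kb) did not differ beyond their spread. Nor did Ccr1 (22.3 ± 14.3 CPM per kb), Ccr4 (18.1 ± 17.8 CPM per kb) and Xcr1 (10.4 ± 0.368 CPM per kb), which follow them in the order. Under the knockout label neighbours in the order did not overlap when all exons of a gene were merged. Ccr8 had 109 ± 1.03 CPM per kb (SD, n = 3), Ccr4 40.2 ± 4.28, Xcr1 10.6 ± 1.13, Ccr2 8.56 ± 0.545 and Ccr1 5.97 ± 1.63. Ccr2 has 6.76 kb of merged exons but 5.73 kb in its principal annotated transcript. The shorter length would raise Ccr2 towards Xcr1, so the order of this pair is not settled. Cxcr4 (1.63 ± 0.777 CPM per kb), Ccr9 (0.226 ± 0.0445 CPM per kb) and Cxcr3 came last. The balance between Ccr2 and Ccr4 shows the change of order most plainly. Per kilobase, Ccr2 was 13.9 and 12.7 times Ccr4 in WT 1 and WT 2. In the library labelled WT 3 it was 0.232 times Ccr4, and in those labelled knockout 0.189 to 0.245 times.

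**Figure D2:**
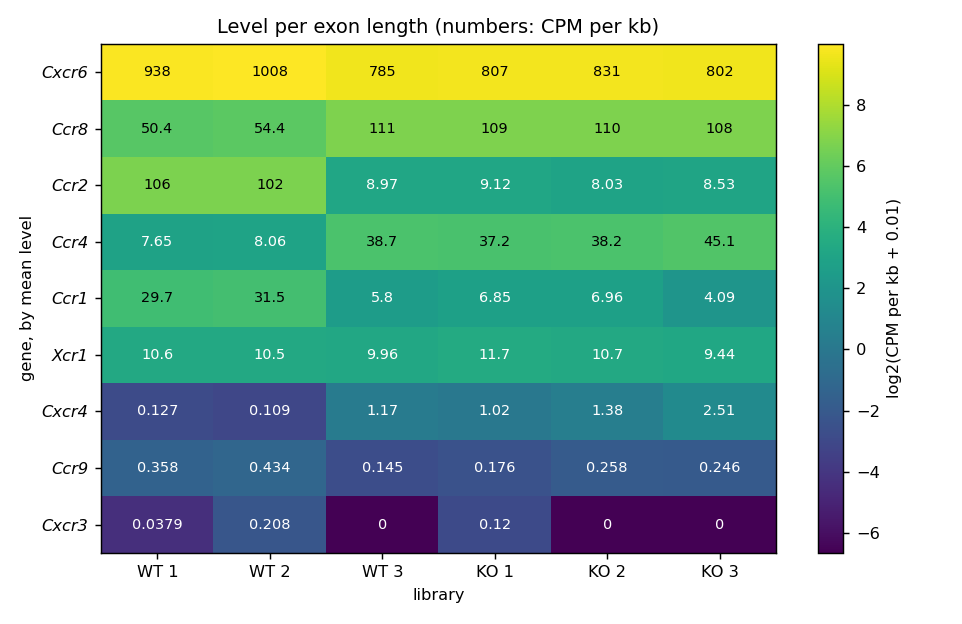
Level of each receptor gene (rows, by mean level) in each library (columns), as CPM per kilobase of exon; colour is log2 of that level plus 0.01, and the printed numbers are the levels. Cxcr6 leads in every library, and the order of Ccr2 and Ccr4 reverses between the first 2 columns and the other 4.

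Ccr2, the receptor for CCL2, lies on chromosome 9 from 124101950 to 124113557 (mm10, forward strand, 3 merged exons in GENCODE vM21). It was at 717 and 692 CPM in WT 1 and WT 2 but at 60.7 CPM in the library labelled WT 3. In KO 1, KO 2 and KO 3 it was at 61.6, 54.3 and 57.7 CPM. The library labelled WT 3 lay inside the knockout range, so the labels overlapped. With all 6 libraries the log2 difference of -3.08 (knockout minus wild type, SE 0.81) did not pass edgeR's quasi-likelihood test (adjusted p = 0.342), though DESeq2 passed it on the same counts (adjusted p = 0.00215). Ccr2 fell 12.1-fold once the library labelled WT 3 was left out (log2 difference -3.60, SE 0.09, adjusted p = 1.06e-05 by edgeR). In bulk samples such as these, fewer cells with a transcript and less of it per cell cannot be told apart.

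Ccr1, the receptor for CCL3 and CCL5, lies on chromosome 9 from 123962124 to 123968692 on the reverse strand and has 2 exons. It was at 84.1 and 89.2 CPM in WT 1 and WT 2, and in the library labelled WT 3 at 16.4 CPM. The level was 19.4, 19.7 and 11.6 CPM in KO 1, KO 2 and KO 3. Again the library labelled WT 3 fell inside the knockout range. The log2 difference of -1.90 (SE 0.60) did not pass with all 6 libraries by edgeR (adjusted p = 0.342) and passed by DESeq2 (adjusted p = 0.0389). Ccr1 fell 5.11-fold without the library labelled WT 3 (log2 difference -2.35, SE 0.23, adjusted p = 0.000401 by edgeR).

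Promoter windows of Ccr1, Ccr2, Ccr4 and Ccr8 are shown because these receptors, at over 10 CPM in every library, differed in opposite directions between the same libraries. Each window runs from 250 bases before to 50 bases after the RefSeq start site (GRCm38.p6, the assembly of mm10), 5′ to 3′ on the gene's own strand. Capitals mark matches, on either strand, to 6 motifs: the AP-1 site TGANTCA, the GATA factor site AGATAA, an NF-kB site that opens with GGGA and, after any 4 bases, ends in CC, the E-box CACGTG, the RUNX site TGTGGT and the ROR site AGGTCA. The windows of the pair with high levels in WT 1 and WT 2 are chr9:124101933-124102232 on the forward strand for Ccr2 and chr9:123968643-123968942 on the reverse strand for Ccr1.
Ccr2: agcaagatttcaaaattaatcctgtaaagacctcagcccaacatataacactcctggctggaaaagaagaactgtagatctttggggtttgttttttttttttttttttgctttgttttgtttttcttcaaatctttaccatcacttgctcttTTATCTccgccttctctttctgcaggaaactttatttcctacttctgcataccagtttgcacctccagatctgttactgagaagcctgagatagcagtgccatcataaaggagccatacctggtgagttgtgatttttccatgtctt
Ccr1: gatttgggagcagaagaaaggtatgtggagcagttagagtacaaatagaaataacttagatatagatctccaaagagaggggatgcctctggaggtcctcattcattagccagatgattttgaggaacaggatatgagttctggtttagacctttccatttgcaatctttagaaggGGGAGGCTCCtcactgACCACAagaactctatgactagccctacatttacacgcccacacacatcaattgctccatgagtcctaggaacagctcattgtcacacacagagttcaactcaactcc

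In these letters Ccr2 held 1 GATA match, and Ccr1 held 1 NF-kB and 1 RUNX match. The windows of the pair with low levels in WT 1 and WT 2 are chr9:114496495-114496794 on the reverse strand for Ccr4 and chr9:120091883-120092182 on the forward strand for Ccr8.
Ccr4: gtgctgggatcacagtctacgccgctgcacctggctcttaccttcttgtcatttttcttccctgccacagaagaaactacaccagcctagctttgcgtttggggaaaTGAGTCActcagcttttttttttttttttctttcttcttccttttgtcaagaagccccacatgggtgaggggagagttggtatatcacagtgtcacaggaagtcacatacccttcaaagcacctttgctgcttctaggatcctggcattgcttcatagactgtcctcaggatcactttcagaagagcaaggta
Ccr8: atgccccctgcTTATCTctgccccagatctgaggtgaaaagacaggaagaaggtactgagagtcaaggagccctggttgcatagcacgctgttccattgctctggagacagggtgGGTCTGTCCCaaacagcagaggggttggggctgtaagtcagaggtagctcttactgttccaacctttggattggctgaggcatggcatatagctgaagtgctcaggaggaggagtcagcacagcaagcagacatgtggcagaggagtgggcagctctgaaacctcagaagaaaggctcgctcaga

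Ccr4 alone of the 9 windows held the AP-1 letters, which 7.81% of 32851 RefSeq windows of this length hold. The GATA letters were in Ccr2 and Ccr8 (11.2% of windows) and the NF-kB letters in Ccr1, Ccr8 and Ccr9 (20.7%). The RUNX letters were in Ccr1, Cxcr3 and Cxcr6 (16.8%), and the E-box in Xcr1 (7.15%), while no window held the ROR letters (16.3%). Cxcr4 held none of the 6, and no matches overlapped. The RefSeq start of Ccr4 lies 8372 bases inside the gene as the deposited table bounds it, and that of Ccr9 88772 bases inside. The windows of Ccr4 and Ccr9 are thus not at the gene models' outer ends. The start of Ccr2 lies 233 bases inside and that of Cxcr3 122 bases inside. Most of the Ccr2 window, with its GATA match, therefore lies within the gene model.

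Ccr4, a receptor for CCL17 and CCL22 that marks type 2 helper T cells, lies on chromosome 9 from 114490316 to 114504916 on the reverse strand. It was at 23.7 and 24.9 CPM in WT 1 and WT 2, while the library labelled WT 3 had 120 CPM. In KO 1, KO 2 and KO 3 it was at 115, 118 and 139 CPM. The library labelled WT 3 lay above 2 of the 3 libraries labelled knockout. With all 6 libraries the log2 difference of 1.15 (SE 0.62) did not pass by edgeR (adjusted p = 0.373) or by DESeq2 (adjusted p = 0.248). Ccr4 rose 5.14-fold without the library labelled WT 3 (log2 difference 2.36, SE 0.13, adjusted p = 5.27e-05 by edgeR).

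Ccr8, the receptor for CCL1 and CCL8, lies on chromosome 9 from 120092114 to 120094906 (forward strand) and has 2 exons. It was at 59.2 and 63.9 CPM in WT 1 and WT 2, with 130.4 CPM in the library labelled WT 3. It measured 129, 129.8 and 127 CPM in KO 1, KO 2 and KO 3. The last 4 values lay close together, with the library labelled WT 3 just above the knockout range. The log2 difference was 0.61 with all 6 libraries (SE 0.30, adjusted p = 0.361 by edgeR), which did not pass. Ccr8 rose 2.10-fold without the library labelled WT 3 (log2 difference 1.07, SE 0.09, adjusted p = 0.000273 by edgeR).

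Cxcr4, the receptor for CXCL12 that holds lymphocytes in bone marrow and lymphoid tissue, lies on chromosome 1 from 128588199 to 128592293 on the reverse strand. It was scarce: 7 and 6 counts in WT 1 and WT 2, or 0.229 CPM (exact 95% Poisson interval 0.0923 to 0.473) and 0.196 CPM (0.0721 to 0.427). The library labelled WT 3 held 64 counts, or 2.12 CPM (1.63 to 2.71). Those labelled KO 1, KO 2 and KO 3 held 1.84, 2.50 and 4.53 CPM. Such intervals hold counting error alone, because reads that carry no molecular identifiers are not independent molecules. The library labelled WT 3 stood between the knockout libraries, and the intervals of those labelled WT 1 and WT 2 lay below that of any other library (the lowest bound elsewhere was 1.37 CPM). The log2 difference of 1.796 with all 6 libraries (SE 0.95) did not pass by edgeR (adjusted p = 0.371). Without that library, Cxcr4 rose by a log2 difference of 3.78 (SE 0.61, adjusted p = 0.00328 by edgeR), a fold that rests on the 7 and 6 counts of WT 1 and WT 2.

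Cxcr6, the receptor for CXCL16, lies on chromosome 9 from 123806475 to 123811760 (forward strand), inside the Fyco1 gene on the other strand, and shares 0 exon bases with it. It was at 1811, 1946 and 1517 CPM in WT 1, WT 2 and the library labelled WT 3, and at 1558, 1605 and 1550 CPM in KO 1, KO 2 and KO 3. The range over the 6 libraries is narrow, with WT 1 and WT 2 at the top. With all 6 libraries the log2 difference of -0.16 (95% interval -0.55 to 0.23) did not pass by edgeR (adjusted p = 0.596). Cxcr6 fell 1.19-fold without the library labelled WT 3 (log2 difference -0.25, SE 0.08, adjusted p = 0.0437 by edgeR). Fyco1 itself, at 25.3 to 30.4 CPM in all libraries, passed in neither fit.

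Xcr1, the XCL1 receptor, lies on chromosome 9 from 123852315 to 123862029 on the reverse strand. It was at 47.4, 47.0 and 44.4 CPM in WT 1, WT 2 and the library labelled WT 3 and at 52.1, 47.5 and 42.0 CPM in KO 1, KO 2 and KO 3. Both the highest and the lowest value carried the knockout label. The log2 difference was 0.03 with all 6 libraries (95% interval -0.29 to 0.35, adjusted p = 0.913 by edgeR) and 0.0074 without the library labelled WT 3 (-0.29 to 0.31, adjusted p = 0.973). Differences as large as the ends of these intervals are not excluded.

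Ccr9, the gut-homing receptor for CCL25, was at 3.67, 4.45 and 1.49 CPM in WT 1, WT 2 and the library labelled WT 3, and at 1.801, 2.65 and 2.52 CPM in KO 1, KO 2 and KO 3. Its gene model in the table runs on chromosome 9 from 123678439 to 123784330 and overlaps the spans of Lztfl1 and Slc6a20a on the other strand. Whether their exons share bases with those of Ccr9 was not checked. Reads over any shared exon bases could be told apart only if strand was used, which no label states. The difference passed in neither fit (log2 -0.46, SE 0.46, adjusted p = 0.587 with all 6 libraries, and -0.80, SE 0.33, adjusted p = 0.108 without the library labelled WT 3, both by edgeR). Cxcr3, the receptor for CXCL9 and CXCL10 on type 1 lymphocytes, lies on chromosome X from 101731535 to 101734269. It had 2, 11 and 0 counts under the wild-type label and 6, 0 and 0 under the knockout label. The 3 libraries at 0 allow up to 3 counts, or 0.0892 to 0.0994 CPM. Cxcr3 did not pass the filter on low counts and was not tested.

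**Figure D3:**
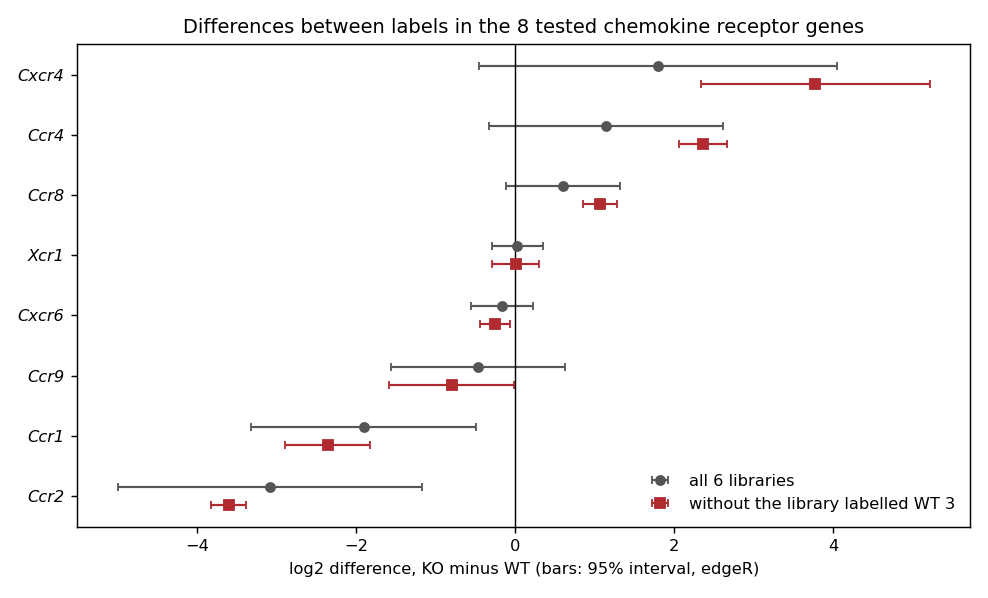
Log2 difference between labels (x axis, knockout minus wild type) of the 8 tested receptor genes (y axis), from edgeR with all 6 libraries (circles) and without the library labelled WT 3 (squares); bars are 95% intervals. Without that library the intervals of 7 genes leave out 0, of which 6 pass after adjustment, and Xcr1 lies near 0.

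Of the 9 receptors, 8 passed the filter on low counts. With all 6 libraries, edgeR passed 0 of these 8 at an adjusted p under 0.05, as it did over all 14052 genes tested (0% called). At an unadjusted p under 0.05, 2 of the 8 (Ccr1 and Ccr2) stood beside 14.4% of all genes. Both were lower, beside 10.4% of all genes (3.99% were higher). DESeq2 passed the same 2, both lower, beside 2.30% of all genes (2.19% lower and 0.107% higher). Limma-voom and limma-trend passed 0 of 8 and 0 over all genes. In none of the 9 did the 3 libraries of one label all lie above those of the other, beside 18.5% of all genes tested. Without the library labelled WT 3, edgeR called 33.9% of 14743 genes. There 3 of the 8 receptors rose (17.7% of all genes) and 3 fell (16.1% of all genes), with a median log2 difference of -0.12 beside 0.02 over all genes tested. Their folds ran from 1.19 for Cxcr6 to 13.7 for Cxcr4. In the comparison that leaves out both libraries numbered 3, the same 6 receptors passed (45.4% of all genes).

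Chromosome 9 holds 7 of the 9 receptor genes, and 5 of them lie in one receptor cluster. Along it the order is Ccr9, Cxcr6, Xcr1, Ccr1, Ccr1l1, Ccr3 and Ccr2. Without the library labelled WT 3, the log2 difference was -0.25 for Cxcr6 and 0.0074 for Xcr1, and past the gap of 100094 bases between Xcr1 and Ccr1 the values were -2.35 for Ccr1, -2.43 for Ccr3 and -3.60 for Ccr2. With all 6 libraries, where none passed by edgeR, the same genes had -0.16, 0.03, -1.90, -2.14 and -3.08. Not all genes before the gap lay near 0. Without the library labelled WT 3, edgeR gave Ccr9 -0.80 (adjusted p = 0.108) and its neighbour Lztfl1 -0.56 (adjusted p = 0.0354). Ccr1l1, at 0 counts in 3 libraries, had -2.25 (SE 1.48, adjusted p = 0.293) in the fit without that library and did not pass. Ccr4 and Ccr8, the 2 members on chromosome 9 outside the cluster, rose without the library labelled WT 3, as did Cxcr4 on chromosome 1. The counts of Ccr2 are not whole numbers, so its values are uncertain as far as reads shared with related genes were divided.

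**Figure D4:**
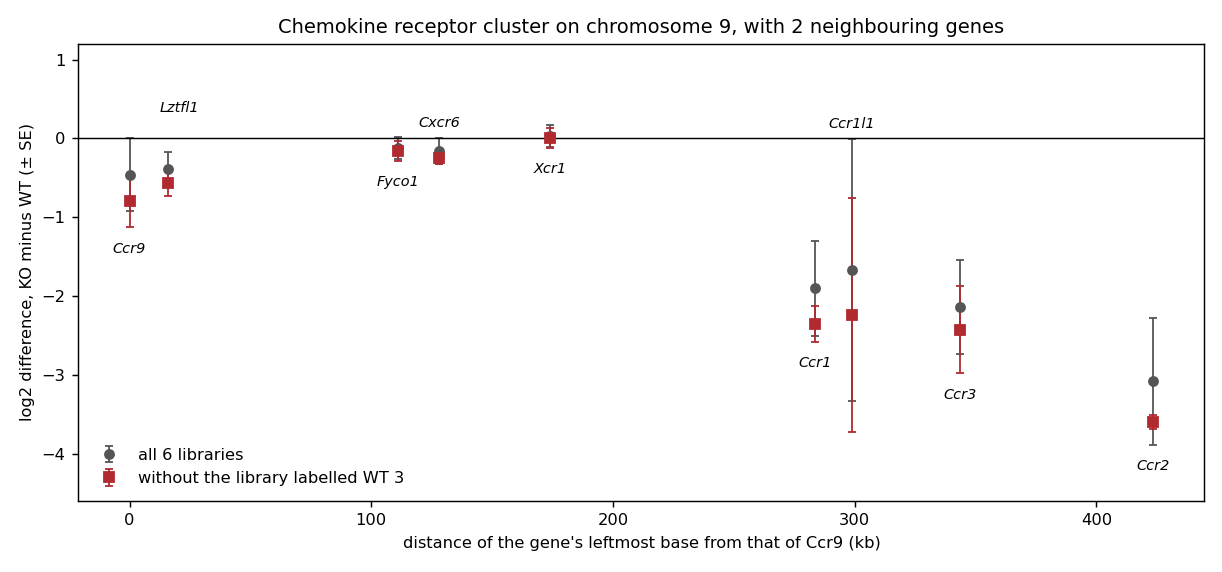
Log2 difference between labels (y axis, knockout minus wild type, ± SE) of 7 receptor genes of the chromosome 9 cluster and 2 neighbouring genes, against the distance in kb of each gene's leftmost base from that of Ccr9 (x axis). Circles are from all 6 libraries and squares from the fit without the library labelled WT 3; Cxcr6 and Xcr1 lie near 0 and Ccr1, Ccr3 and Ccr2 at -1.90 or below.

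Among 17 further receptor genes, 12 were in the table and 8 were tested. EdgeR passed 0 with all 6 libraries (2 at an unadjusted p under 0.05, beside 14.4% of all genes), and DESeq2 passed 1, Ccr3 (beside 2.30% of all genes). For Ccr7 DESeq2 gave no p, and for some others of the 8 no adjusted p, so it could not call them. With the library labelled WT 3 left out, edgeR had 2 that rose (beside 17.7% of all genes) and 2 that fell (beside 16.1%). The median log2 difference of the 8 changed sign with that library: it was 0.30 with all 6 libraries and -0.15 without it, beside 0.02 over all genes in either fit. Ccr7, the lymph node homing receptor, rose: it was at 2.03 and 2.81 CPM in WT 1 and WT 2, while the library labelled WT 3 had 24.2 CPM and the knockout libraries 24.2 to 29.9 CPM (log2 difference 3.50, SE 0.24, adjusted p = 0.000123, against 1.504, SE 0.88, adjusted p = 0.390 with all 6 libraries). Its labels did not overlap (beside 9.26% of all genes, higher in knockout), though the library labelled WT 3 all but met the lowest knockout value. Gpr35, an orphan receptor linked to chemotaxis, rose from 0.328 and 0.295 CPM to between 2.14 and 3.87 CPM, with 2.69 CPM in the library labelled WT 3. Its log2 difference was 3.27 (SE 0.49, adjusted p = 0.00243) in that fit and 1.46 (SE 0.87, adjusted p = 0.397) with all 6 libraries.

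Ccr3, the eotaxin receptor of eosinophils, had 4.65, 2.32 and 1.52 CPM on the wild-type side and 0.312 to 0.862 CPM on the knockout side. In Ccr3 the library labelled WT 3 lay above every library labelled knockout, so the labels did not overlap (beside 9.22% of all genes, lower in knockout). Its log2 difference was -2.14 (SE 0.60, adjusted p = 0.342) with all 6 libraries and -2.43 (SE 0.55, adjusted p = 0.0142) without that library. The receptor gene Ccrl2 was at 0.497 to 3.11 CPM and passed in neither fit. The fits are edgeR's.

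Of 18 ligand genes of the 9 receptors, 10 were in the table and 6 were tested. None passed with all 6 libraries by edgeR (1 at an unadjusted p under 0.05, beside 14.4% of all genes). None passed by DESeq2, which gave Ccl3 no adjusted p. By edgeR 3 rose without the library labelled WT 3 (beside 17.7% of all genes): Ccl5, Cxcl16 and Ccl3. For Ccl3 this rests on 0.0983 CPM in WT 1, the floor of 3 counts, and 0 CPM in WT 2. It was at 0.446 to 1.76 CPM in the knockout libraries (log2 difference 4.19, SE 1.27, adjusted p = 0.0408 by edgeR). The median log2 difference of the 6 tested ligand genes was 1.499 with all 6 libraries, 2.92 without the library labelled WT 3 and 2.14 without both libraries numbered 3. Over all genes tested these medians were 0.02, 0.02 and -0.0034. Cxcl16, the ligand of the most abundant receptor, Cxcr6, was at 0.721 and 0.295 CPM in WT 1 and WT 2. The library labelled WT 3 had 5.63 CPM, against 6.16, 7.26 and 7.98 CPM in KO 1, KO 2 and KO 3 (log2 difference 3.81, SE 0.45, adjusted p = 0.000909 without the library labelled WT 3, and 1.69, SE 0.96, adjusted p = 0.384 with all 6). Ccl5, a ligand of Ccr1, had 1.02 and 1.05 CPM in WT 1 and WT 2, 5.58 to 12.7 CPM among the knockouts and 7.39 CPM in the library labelled WT 3 (log2 difference 2.98, SE 0.48, adjusted p = 0.00315 in the fit of 5 libraries, and 1.36, SE 0.83, adjusted p = 0.401 in that of 6). Ccr1 itself fell without the library labelled WT 3. The labels did not overlap in Cxcl16 (beside 9.26% of all genes, higher in knockout). Its library labelled WT 3 lay nearer to the knockout range than to WT 1 and WT 2. Ccl25, the ligand of Ccr9, was at 5.25, 5.56 and 4.47 CPM under the wild-type label and 7.83, 7.77 and 9.92 CPM under the knockout label. Its labels did not overlap either (beside the same 9.26%), but the difference passed in neither fit (adjusted p = 0.342 and 0.0748 by edgeR). Cxcl10 (0.131 to 6.61 CPM) and Ccl1 (0.900 to 1.82 CPM) did not pass in either fit.

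**Figure D5:**
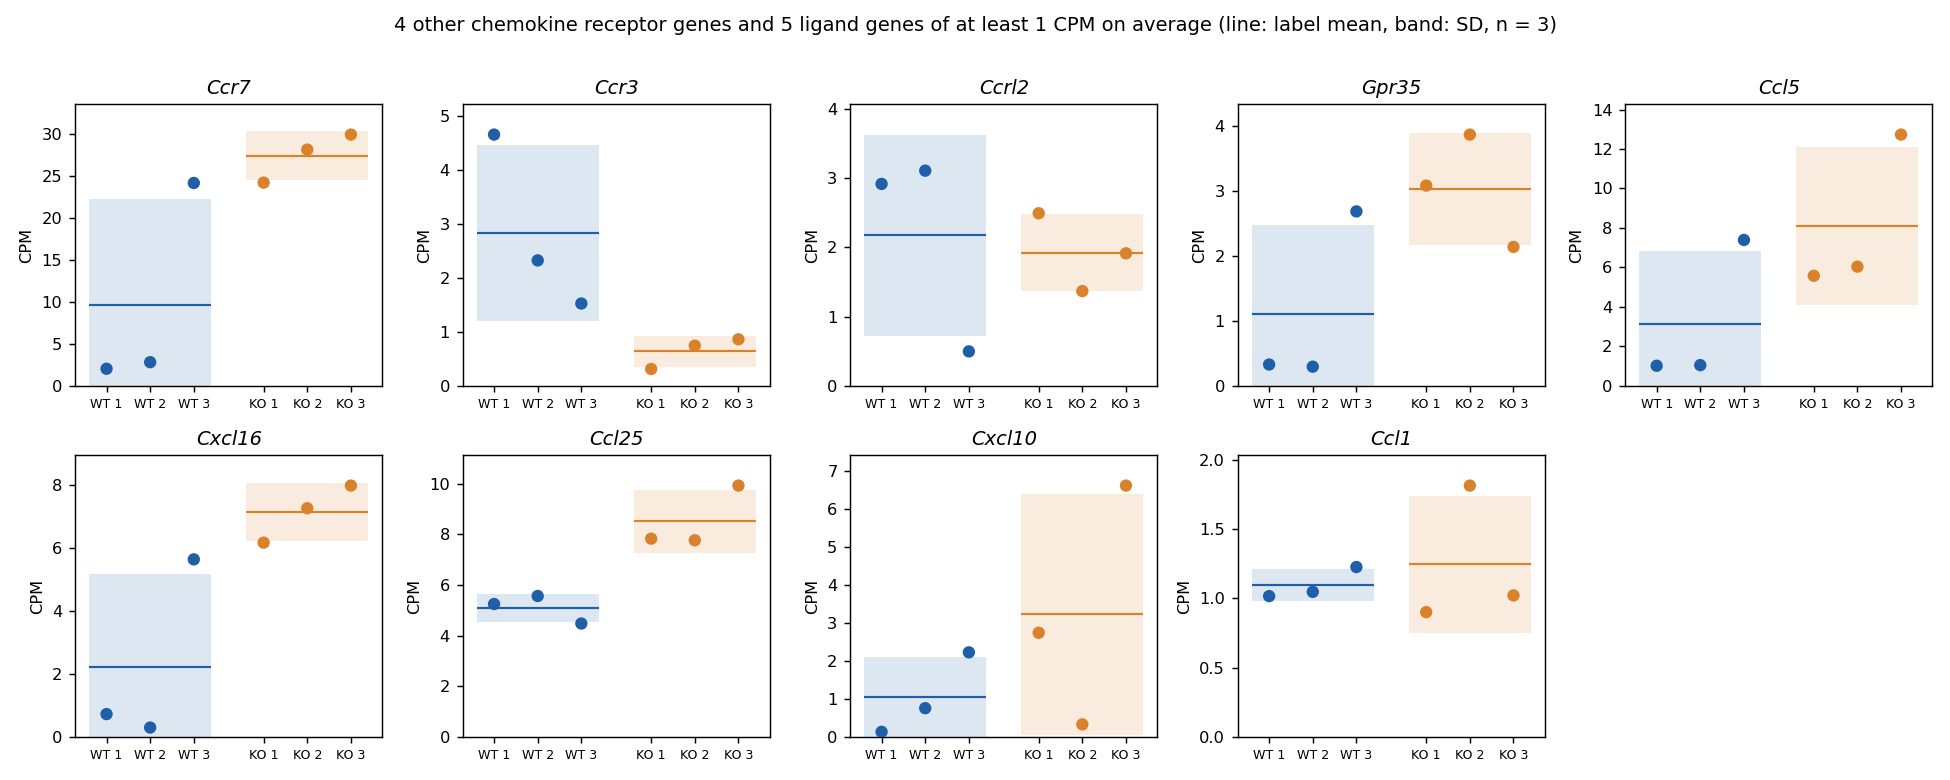
CPM (y axis, from 0) of 4 further receptor genes and 5 ligand genes with a mean of at least 1 CPM, in the 6 libraries (x axis); points are libraries, lines label means and bands 1 SD, drawn down to 0 at most. Ccr7, Gpr35, Ccl5 and Cxcl16 share the low values of Ccr4 in WT 1 and WT 2. The labels do not overlap in Ccr3, Ccr7, Cxcl16 and Ccl25, beside 18.5% of all genes tested.

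Signalling genes below the receptors were abundant, and 32 of 34 listed were tested. EdgeR passed 0 with all 6 libraries (10 at an unadjusted p under 0.05, beside 14.4% of all genes), and DESeq2 passed 1 (beside 2.30%). In edgeR's fit without WT 3 as labelled, 4 rose (beside 17.7% of all genes) while 11 fell (beside 16.1%). The median log2 difference was -0.26 with all 6 libraries and -0.31 in that fit, beside 0.02 over all genes. Pik3cg, the catalytic subunit of PI3-kinase gamma, was the DESeq2 call (adjusted p = 0.0361, against 0.342 by edgeR), at 125, 114 and 99.2 CPM under the wild-type label and 78.3, 81.3 and 72.4 CPM under the knockout label. Here the library labelled WT 3 kept to the side of its label (beside 9.22% of all genes, lower in knockout without overlap). Rgs14 and Grk6, which turn receptor signals down, fell without the library labelled WT 3 by 1.46 (SE 0.12, adjusted p = 0.00021) and 0.77 (SE 0.15, adjusted p = 0.00681) on the log2 scale. Rgs2, another brake on G proteins, rose by 1.61 (SE 0.30, adjusted p = 0.0058). Of the most abundant signalling genes, Rac2 fell by 0.77 (SE 0.14, adjusted p = 0.00638) in the same fit, while Coro1a and Cdc42, which act on actin, did not pass (adjusted p = 0.062 and 0.363). With all 6 libraries edgeR gave Rgs14 -1.14, Grk6 -0.63, Rgs2 1.22 and Rac2 -0.61 on the log2 scale, each with an adjusted p of 0.342.

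Markers of other cells that carry these receptors moved as follows, and their part in the results was not tested. For Ccr1 and Ccr2, 8 of 10 monocyte and macrophage markers were in the table, with a summed level of 13.0, 11.1 and 4.51 CPM in the wild-type libraries against 2.68 to 6.30 CPM in the knockout libraries. Mrc1 and Cd14 were at 0 in some libraries. Cd68 led that list, at 7.77 and 7.46 CPM in WT 1 and WT 2 and 2.12 to 3.33 CPM elsewhere, ahead of Lyz2 (at most 1.93 CPM) and Adgre1 (at most 1.57 CPM). For Ccr3 and Ccr1, the 6 granulocyte and mast cell markers summed to 78.5, 67.6 and 217 CPM on the wild-type side (WT 1, WT 2 and then the library labelled WT 3). On the knockout side they summed to 175 to 190 CPM. Most of each sum was Kit (59.2 to 213 CPM over the 6 libraries), with Cpa3 at most 8.98 CPM and Fcer1a at most 2.46 CPM. The sum thus follows Kit and not the list as a whole. By edgeR the median log2 difference of the 4 tested markers was -1.73 with all 6 libraries, where 0 passed. It was -1.77 without the library labelled WT 3, where 1 rose and 1 fell (beside 17.7% and 16.1% of all genes). Mcpt8, Fcer1a, Ms4a2 and S100a9 were at 0 in some libraries.

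For Ccr4 and Ccr8, 9 of 10 T cell markers summed to 199, 227 and 87.7 CPM in the wild-type libraries against 80.7 to 94.1 CPM in the knockout libraries. That sum was mostly Lat (48.7 to 181 CPM) and Cd3g (11.4 to 37.2 CPM), while Cd3e was at 2.39 to 4.41 CPM and Cd8b1 at 0 in 4 libraries. The median log2 difference of the 8 tested T cell markers was 0.35 with all 6 libraries, where 0 passed, and 0.46 without the library labelled WT 3, where 1 rose and 2 fell (beside 17.7% and 16.1% of all genes). For Ccr9, 3 of 7 plasmacytoid dendritic cell markers (Bst2, Runx2 and Tcf4) summed to 97.5 to 118 CPM. For Xcr1, the 8 type 1 dendritic cell markers in the table summed to 32.4 to 62.1 CPM, most of it Irf8 (26.5 to 55.8 CPM), then Zbtb46 (0.459 to 3.98 CPM) and Cadm1 (0.885 to 3.22 CPM). Batf3, Wdfy4, Tlr3, Itgae and Flt3 were at 0 in some libraries, and Flt3 was at 0 in 5 of 6.

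For Cxcr3, the 5 NK and ILC1 markers summed to 11.0 to 13.9 CPM in the wild-type libraries against 3.64 to 10.9 CPM in the knockout libraries, led by Gzmb, Prf1 and Gzma. The 4 B cell markers (Ighm, Cd79b and Cd79a foremost) summed to 24.6 to 31.6 CPM in 5 libraries and 200.6 CPM in the library labelled KO 3. The 5 epithelial, endothelial and stromal markers summed to 60.9 to 108 CPM on the wild-type side and 120.2 to 140.4 CPM on the knockout side. Within them Epcam went with Ccr2 (57.4 and 52.3 CPM, against 8.90 to 14.3 CPM elsewhere) and Pecam1 with Ccr4 (10.4 and 8.54 CPM, against 92.0 to 131 CPM elsewhere), while Scgb1a1 was at 15.02 CPM in the library labelled KO 2 and at most 0.232 CPM elsewhere.

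Genes whose pattern over the 6 libraries was most like that of the 3 receptors highest in CPM were found by Pearson's r of log2(CPM + 0.5) among 10687 other named genes of at least 1 CPM on average. They are a description, since WT 1 and WT 2 stood apart in many genes. Ccr2 was closest to Rhoc, Tmem64 and Ptpn9 (r = 0.999 or more). Tmem64 was at 612 and 590.5 CPM in WT 1 and WT 2 and 117 to 132 CPM elsewhere, a smaller drop than that of Ccr2. Ccr8 was closest to Chchd4, Phgdh and Trmt10c (r = 0.999 or more), and Phgdh had 292 and 320 CPM in WT 1 and WT 2 and 699.8 to 714 CPM in the other 4. Cxcr6 was closest to Phyhd1 (r = 0.997), Orai1 (r = 0.994) and Mppe1 (r = 0.993).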

How the data were processed

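The authors deposited estimated counts per gene, which are not whole numbers (47.1% to 48.5% of values per library were whole within 1e-06), and a normalized signal, which is that count with 1 added, over a factor of each library's own (31.2 to 36.0). In the submitters' processing notes stand mm10, Partek, STAR and CASAVA 1.8.2, with no order. Neither the handling of reads that match more than 1 gene nor the use of strand is stated there. Of the 9 receptors, 5 had whole counts in every library and Ccr2, Ccr4, Ccr9 and Cxcr6 did not.

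Estimated counts were rounded and tested over the whole table in R 4.3.3 with edgeR 4.0.16 (TMM, filterByExpr, robust glmQLFit, glmQLFTest), knockout against wild type with no covariate, adjusted by Benjamini-Hochberg with a threshold of 0.05. The pipeline was tested on simulated data. Standard errors were taken from F and the log2 difference. For CPM, rounded counts were put over TMM-scaled library size, and 3 counts, the floor for a gene at 0, are 0.0892 to 0.104 CPM. Levels per kilobase used merged exons of GENCODE vM21. Deposited gene ends were reduced by 1 base. Promoter windows are from RefSeq (GRCm38.p6), matched by symbol for 9 of 9 receptors.

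Groups came from sample titles and columns from sample descriptions. Members, gene lists and tests were chosen with earlier results of these data known. The rule for named genes took the 9 receptors, other receptors and ligands of at least 1 CPM on average, the 4 signalling genes with the lowest p and the 3 most abundant, and the 3 most abundant of each marker list. Some genes that fall under it are not reported here. Ccr1l1, Fyco1, Ccl3 and single markers at or near 0 were named after their values were seen. Alternatives were DESeq2 size factors, upper-quartile scaling or library totals in place of TMM, no filter or 2 CPM in at least 3 libraries, limma-voom (limma 3.58.1), the DESeq2 1.42.0 Wald test, limma-trend on the authors' normalized signal (log2, 1 added), a block for the replicate number, leaving out any single library, and both libraries numbered 3 left out.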

Additional observations from a re-analysis of the deposited data

How the results depend on the processing

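Of the 8 tested receptors, Ccr1, Ccr2, Ccr4, Ccr8, Ccr9, Cxcr4 and Cxcr6 kept their direction under all 16 alternatives, and Xcr1, near 0 throughout, changed sign in 5 of 16. DESeq2 with all 6 libraries passed Ccr1 (-1.92), Ccr2 (-3.10), 1 further receptor, 1 signalling gene and 323 genes in all. Without both libraries numbered 3, edgeR passed Ccr1 (-2.14), Ccr2 (-3.60), Ccr4 (2.27), Ccr8 (1.08), Cxcr4 (3.33) and Cxcr6 (-0.24), with 6 receptors of the set, 6 further receptors, 3 ligands, 20 signalling genes and 6505 genes in all. Xcr1 was at -0.0052 with no filter, -0.0070 with the filter of 2 CPM and -0.0047 by limma-trend. With 1 library left out at a time, the log2 difference ran from -2.35 to -1.57 for Ccr1, -3.60 to -2.74 for Ccr2, 0.77 to 2.36 for Ccr4, 0.38 to 1.07 for Ccr8, -0.80 to -0.15 for Ccr9, 1.33 to 3.78 for Cxcr4, -0.25 to -0.083 for Cxcr6 and -0.042 to 0.11 for Xcr1. Calls ran from 0 to 6 receptors of the set, 0 to 4 further receptors, 0 to 3 ligands, 0 to 15 signalling genes and 0 to 4991 genes in all, and every call in these came without the library labelled WT 3. The cause was not tested.

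Deviations of same-numbered libraries from their label means had r = -0.0367, 0.0196 and -0.00776. The library labelled WT 3 stood apart from WT 1 and WT 2 in many genes and so dominates these deviations. The check therefore cannot show whether the replicate numbers stand for a pairing or a batch. With the replicate number as a block, edgeR passed 0 receptors of the set and 0 genes in all, with Ccr2 at -2.56 and Cxcr4 at 2.49. Counting error limits Cxcr3 throughout and Cxcr4 in WT 1 and WT 2.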
